A study of Homo sapiens with 12 samples.

Results

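The 8 genes described here encode the human DNA topoisomerases TOP1, TOP1MT, TOP2A, TOP2B, TOP3A and TOP3B and the 2 tyrosyl-DNA phosphodiesterases TDP1 and TDP2. They were taken by name from the 63299 genes listed in the deposited count tables, and all 8 passed the filter on low counts, which kept 17191 genes. The family was chosen by the level of TDP1, whose counts in these libraries were known to be higher after PRMT5 knockdown, so TDP1 in the knockdown without irradiation is given as a description with no test. The cells were LNCaP, a human prostate cancer line established from a metastasis in a lymph node. In every group they carried an inducible hairpin that doxycycline switches on and that targets PRMT5, which adds symmetric dimethyl groups to arginines of other proteins. The 12 libraries fell into 4 groups of 3: non-irradiated control (no doxycycline, 0 Gy), non-irradiated knockdown (doxycycline at 1 µg/mL every 48 h, 0 Gy), irradiated control (no doxycycline, 2 Gy) and irradiated knockdown (doxycycline, 2 Gy). Irradiated cells were collected 24 h after the dose. Doxycycline and the induction of the hairpin always came together, and the labels name no control hairpin.

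Topoisomerases relieve the twist and the tangles that build up in DNA when it is copied or transcribed. They cut DNA through a tyrosine that stays bound to the cut end, pass DNA through or around the cut, and seal it again. TOP1 and its mitochondrial relative TOP1MT cut a single strand and stay bound to its 3′ end. TOP2A and TOP2B cut both strands and stay bound to the 5′ ends; TOP2A is made mainly in dividing cells and is needed to separate chromosomes, while TOP2B is also made in resting cells. TOP3A and TOP3B cut single-stranded DNA, and TOP3B also acts on RNA. An enzyme trapped on DNA, for example by a drug such as camptothecin or etoposide, leaves a protein-blocked break. TDP1 removes the remains of topoisomerase I from 3′ ends, and TDP2 those of topoisomerase II from 5′ ends.

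Total counts ran from 14801939 to 33158865 per library. PRMT5 stood at 186 to 198 CPM in the non-irradiated controls and 26.6 to 32.8 CPM in the non-irradiated knockdowns, and at 187 to 230 CPM and 24.9 to 31.3 CPM in the irradiated groups, so no library went against its label (CPM are read counts scaled to a common library size by TMM). All 6 luminal prostate markers were detected in every library, among them KLK3 at 1782 to 4078 CPM. Of 14 markers of other cells, CD3E and COL1A2 were at 0 in all 12 libraries, PTPRC and CHGA in 11, TP63 in 10, KRT5 in 9, CD68 in 6 and DCN in 4. The other 6 had counts in every library: LCP1, COL1A1 (11.5 to 22.9 CPM), LUM (0.383 to 3.08 CPM), KRT14 (0.732 to 4.96 CPM), SYP (1.70 to 3.04 CPM) and ENO2 (23.2 to 93.1 CPM). The actin-bundling gene LCP1, on the leukocyte list, ran from 48.1 to 259 CPM and set the summed level of that list, which was 48.1 to 73.8 CPM in non-irradiated controls, 69.4 to 123 CPM in non-irradiated knockdowns, 77.9 to 259 CPM in irradiated controls and 97.5 to 241 CPM in irradiated knockdowns. ENO2, an enolase gene on the neuroendocrine list, set the level of that list, which was 53.8 to 82.1 CPM in non-irradiated controls, 69.7 to 95.9 CPM in non-irradiated knockdowns, 27.3 to 45.3 CPM in irradiated controls and 25.5 to 47.9 CPM in irradiated knockdowns. ENO2 gave -0.82 with irradiation in controls and -1.05 in knockdowns (edgeR adjusted p = 0.123 and 0.0633). With a term for the replicate number the edgeR adjusted p was 0.0238 and 0.00843, but across irradiation states that term joins libraries that share only a number. The part of either gene in the results below was not tested. The non-irradiated and irradiated libraries came from 2 separate deposited tables, so irradiation and any other difference between the tables cannot be told apart. The labels do not state whether replicates were separate cultures, so each p-value rests on the spread among the deposited libraries, and that spread may be technical. Fewer cells of a kind and less RNA per cell cannot be told apart in such bulk libraries.

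TOP1 was the most abundant member per transcript length in every group. In the non-irradiated controls it stood at 65.9 ± 2.33 CPM per kb of exon (SD, n = 3), a level above that of 97.2% of the tested genes. TOP2B followed at 15.2 ± 1.13 CPM per kb and TDP2 at 12.9 ± 1.39 CPM per kb, and the libraries of those 2 overlapped. TDP1 at 8.26 ± 1.42 CPM per kb was below every TDP2 value and above every TOP3A value. TOP3A at 5.37 ± 0.175, TOP2A at 4.49 ± 5.55, TOP3B at 4.41 ± 0.427 and TOP1MT at 3.82 ± 0.467 CPM per kb formed the low end, where each gene overlapped the next in the order. TOP1MT was above 48.7% of the tested genes. The place of TOP3B is uncertain, because an antisense gene covers 90.7% of its exon bases and the strand setting is not given. In the non-irradiated knockdowns TDP1 took the next place after TOP1, at 19.0 ± 5.12 CPM per kb, where its libraries overlapped those of TOP2B (16.9 ± 0.638 CPM per kb). In the irradiated controls it stood below TDP2 and TOP2A, at 9.46 ± 1.88 CPM per kb, and its libraries overlapped those of TOP2A. In the irradiated knockdowns it stood after TOP1 and TOP2B, at 16.7 ± 1.92 CPM per kb, and its libraries overlapped those of TDP2. TOP2A stood between TOP3A and TOP3B in the non-irradiated controls and between TDP2 and TDP1 in the irradiated controls (11.3 ± 2.08 CPM per kb). By mean TOP2A was last in the irradiated knockdowns (5.06 ± 1.30 CPM per kb). In each of these groups its libraries overlapped those of the genes next to it in the order.

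**Figure D1:**
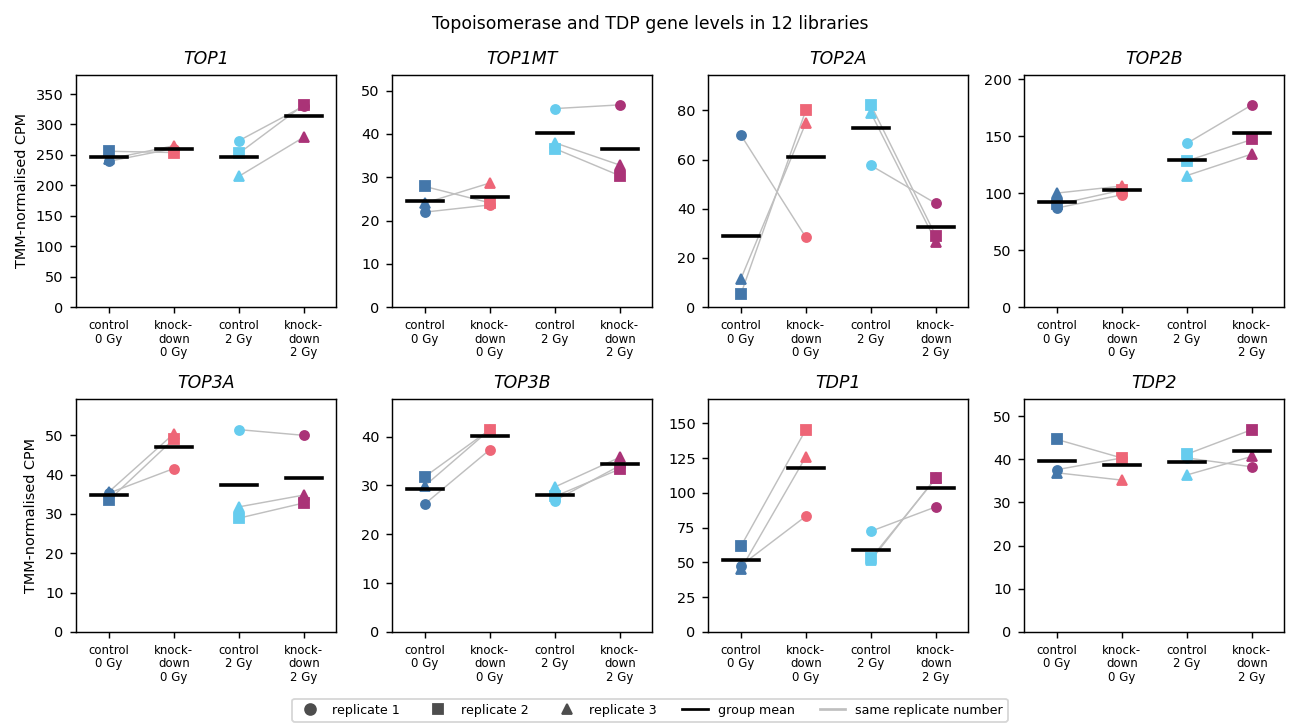
TMM-normalised CPM of the 8 genes (vertical axis, from 0, a scale per gene) in 4 groups of 3 libraries. Points are libraries, marker shapes are replicate numbers, black bars are group means and grey lines join the same replicate number within an irradiation state. TDP1 is higher in the knockdown than in the same-numbered control in all 6 pairs, while TOP2A in the non-irradiated controls spans 5.27 to 70.0 CPM.

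TDP1 (ENSG00000042088.13; chromosome 14, 89954939 to 90044768, plus strand, GRCh38) frees 3′ ends from topoisomerase I remains, and its product works ahead of the single-strand break repair proteins XRCC1 and LIG3. No other listed gene covered any of its 6227 exon bases. It stood at 47.7, 61.5 and 45.1 CPM in the non-irradiated controls and at 83.3, 146 and 126 CPM in the non-irradiated knockdowns. Every knockdown library was above every control library, with replicate 1 the lowest of the knockdowns. The log2 fold change was 1.20 (SE 0.21), a fold of 2.30, and by pair the log2 differences were 0.80, 1.24 and 1.48. The irradiated libraries were tested, but whether the choice of this family also drew on them is not known. The p-values of TDP1 in those libraries may therefore not be independent of that choice. There TDP1 stood at 72.4, 52.8 and 51.5 CPM in controls and at 90.0, 110 and 111 CPM in knockdowns. Again no library of one group reached the other, and the pair that lay closest together was replicate 1. The log2 fold change was 0.82 (SE 0.21, edgeR adjusted p = 0.204, and 0.0604 with a term for the replicate number), so this difference did not pass the test over all genes. It passed with DESeq2 (adjusted p = 0.0244), without irradiated control replicate 1 (0.99, edgeR adjusted p = 0.0394) and, in an alternative chosen after the data were seen, without the first irradiated pair (1.08, edgeR adjusted p = 0.0467). Over all alternatives its adjusted p ran from 0.0244 to 0.665. The knockdown differences with and without irradiation differed from each other by -0.38 on the log2 scale (SE 0.29, edgeR adjusted p = 1.00).

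TDP1 was also set against TOP1, whose remains its product removes. The ratio of TDP1 to TOP1, both per exon length, was 0.125 ± 0.0171 in the non-irradiated controls and 0.274 ± 0.0768 in the non-irradiated knockdowns (SD, n = 3 each). It was 0.143 ± 0.0167 in the irradiated controls and 0.201 ± 0.0376 in the irradiated knockdowns. The lowest ratio of an irradiated knockdown library, 0.164, lay just above the highest of an irradiated control library, 0.159. TDP1 messenger RNA thus remained the scarcer of the pair in all 12 libraries. Since TDP1 enters this ratio, it is a description and was not tested.

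The 161 bases between the first base of TDP1 and the first base of EFCAB11, its neighbour on the opposite strand, are shown because the 2 genes start on either side of them and their pair differences are set side by side below. The sequence is from RefSeq (GRCh38.p14), chr14:89954778-89954938, plus strand, and capitals mark ATTGG, the reverse of the CCAAT box.
TDP1-EFCAB11 gap: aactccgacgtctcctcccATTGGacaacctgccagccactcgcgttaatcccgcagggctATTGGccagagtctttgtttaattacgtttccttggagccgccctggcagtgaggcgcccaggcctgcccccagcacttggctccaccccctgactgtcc
The gap holds 2 CCAAT matches and no TTTGAA match, counted on both strands. Among 35116 RefSeq promoters, 32.0% hold CCAAT in the 250 bases before the start and 13.3% hold TTTGAA. A match describes letters only.

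EFCAB11 (chromosome 14, 89794669 to 89954777, minus strand), which encodes a protein with EF-hand calcium-binding motifs, had lower levels than TDP1 and a like order of libraries. It stood at 16.3, 22.0 and 14.9 CPM in the non-irradiated controls and at 19.9, 51.4 and 32.1 CPM in the non-irradiated knockdowns. The groups overlapped, since knockdown replicate 1 lay below control replicate 2. Its log2 fold change of 0.96 did not pass (edgeR adjusted p = 0.115) except with the replicate number as a term (adjusted p = 0.0417). With irradiation EFCAB11 stood at 26.0, 20.8 and 19.3 CPM in controls and at 29.5, 37.5 and 40.0 CPM in knockdowns, which did not overlap (0.70, edgeR adjusted p = 0.470). Its pair differences were 0.28, 1.22 and 1.10 without and 0.18, 0.85 and 1.05 with irradiation. In each state the smallest was pair 1, as for TDP1. The next tested gene on the other side, PSMC1, which encodes a proteasome subunit and lies 211.7 kb away, gave -0.02 and -0.07 (edgeR adjusted p = 0.959 and 0.935). PRMT5 itself lies on the same chromosome, 67.0 Mb from TDP1.

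TDP2 (ENSG00000111802.13; chromosome 6, 24649977 to 24667033, minus strand) removes topoisomerase II remains from 5′ ends. It stood at 37.6, 44.6 and 36.9 CPM in the non-irradiated controls and at 40.3, 40.3 and 35.2 CPM in the non-irradiated knockdowns. With irradiation, controls stood at 40.3, 41.2 and 36.4 CPM and knockdowns at 38.2, 46.9 and 40.7 CPM. The 4 groups overlapped throughout. Knockdown gave a log2 fold change of -0.04 (SE 0.12, edgeR adjusted p = 0.900) at 0 Gy and of 0.09 (SE 0.12, adjusted p = 0.888) at 2 Gy. Whether TDP1 and TDP2 differ in their knockdown values was not tested. ACOT13, an acyl-CoA thioesterase gene that starts 1 base from TDP2 on the opposite strand, was lower in the knockdown in all 6 pairs. Its log2 fold change was -0.43 without irradiation (edgeR adjusted p = 0.115, and 0.00208 with the replicate number as a term) and -0.21 with it (adjusted p = 0.671).

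**Figure D2:**
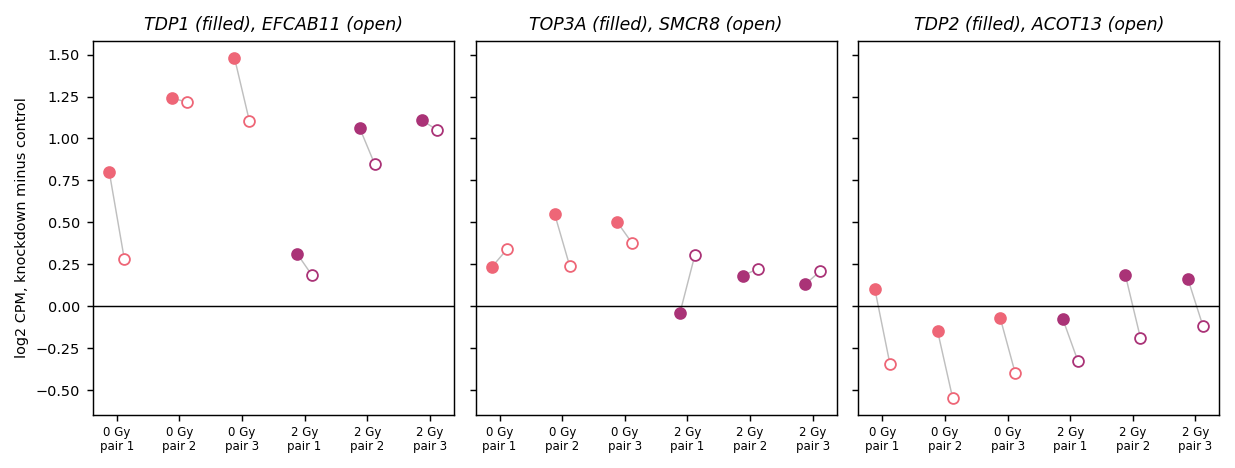
Log2 difference between knockdown and same-numbered control (vertical axis, log2 CPM) in 3 pairs at 0 Gy and 3 at 2 Gy (horizontal axis), for TDP1, TOP3A and TDP2 (filled) and the gene that starts next to each on the opposite strand (open). The TDP1 and EFCAB11 points lie above 0 in all 6 pairs, while ACOT13 lies below 0 in all 6 beside TDP2 values that lie on both sides of it.

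TOP1 (ENSG00000198900.5; chromosome 20, 41028818 to 41124487, plus strand) is the target of camptothecin and its relatives. In the non-irradiated controls it stood at 239, 256 and 243 CPM and in the knockdowns at 260, 254 and 265 CPM. These groups overlapped, and the log2 fold change was 0.08 (SE 0.12, edgeR adjusted p = 0.784). In the irradiated controls it stood at 273, 253 and 215 CPM and in the irradiated knockdowns at 330, 332 and 279 CPM, with the lowest knockdown above the highest control. That difference of 0.35 (log2, SE 0.12) did not pass the test (edgeR adjusted p = 0.355) and passed with the replicate number as a term (0.35, adjusted p = 0.00600). The pair differences were 0.27, 0.40 and 0.38. Without irradiation they were 0.12, -0.01 and 0.13, and the difference between both knockdown effects was 0.27 (SE 0.16, edgeR adjusted p = 1.00). Antisense PLCG1-AS1 covers 2.41% of the exon bases of TOP1 and 5.94% of its short sequence words also occur in another gene, so a small part of its counts is uncertain.

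TOP2A (ENSG00000131747.14; chromosome 17, 40388516 to 40417950, minus strand) is the etoposide target of dividing cells. Its promoter is known for inverted CCAAT boxes, and its upstream sequence is shown because TOP2A followed the proliferation genes from library to library. The 196 bases before its first exon base are from RefSeq (GRCh38.p14), chr17:40417951-40418146, minus strand. Capitals mark CCAAT or ATTGG, with 3 matches, and TTTGAA or TTCAAA, the letters of the cell cycle homology region, with 2.
TOP2A upstream: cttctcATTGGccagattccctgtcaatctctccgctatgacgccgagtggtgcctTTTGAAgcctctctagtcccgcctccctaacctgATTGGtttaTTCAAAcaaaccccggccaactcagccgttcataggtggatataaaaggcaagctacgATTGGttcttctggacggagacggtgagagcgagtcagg
Of the other members with a RefSeq promoter, TOP2B held 2 CCAAT and 1 TTTGAA match in 1 of its 2 promoters, and TDP2, TOP1, TOP3A and TOP3B held none of either in the 250 bases before their RefSeq start. The RefSeq window of TDP1 lies inside the gene as the count tables place it, so only the gap sequence above describes the bases before TDP1.

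In the non-irradiated controls TOP2A stood at 70.0, 5.27 and 11.5 CPM, and in the non-irradiated knockdowns at 28.4, 80.1 and 74.9 CPM. Replicate 1 went the other way from replicates 2 and 3, and the groups overlapped. The pair differences were -1.30, 3.90 and 2.70 on the log2 scale, or 0.405, 15.2 and 6.52 as ratios, and the log2 fold change was 1.10 (SE 0.71, edgeR adjusted p = 0.459). Without non-irradiated control replicate 1 it was 2.87 (edgeR adjusted p = 0.0302) and without the first pair, an alternative chosen after the data were seen, 3.21 (edgeR adjusted p = 0.0133), so a single library decided the call. In the irradiated controls TOP2A stood at 57.6, 82.3 and 79.0 CPM and in the irradiated knockdowns at 42.2, 29.0 and 26.6 CPM. All 3 knockdown libraries lay below all 3 controls. The log2 fold change was -1.16 (SE 0.70, edgeR adjusted p = 0.662), which did not pass, and the pair differences were -0.45, -1.50 and -1.57. The difference between the knockdown effects was -2.26 (SE 1.00, unadjusted p = 0.0430 in edgeR's quasi-likelihood test, adjusted p = 1.00). DESeq2 gave no p for TOP2A in any comparison.

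The spread of TOP2A went with that of 16 other genes of S, G2 and M phase, among them MKI67, CCNB1 and PLK1. Their mean log2 CPM was 4.73, 2.84 and 3.26 in the non-irradiated controls and 4.21, 5.29 and 5.13 in the non-irradiated knockdowns. In the irradiated controls it was 5.71, 4.93 and 4.84 and in the irradiated knockdowns 5.08, 4.07 and 4.02. Non-irradiated control replicates 2 and 3, lowest in TOP2A, were also lowest in this mean. Over the 12 libraries Pearson's r between TOP2A and the mean was 0.914, against 0.290 for TDP1, 0.552 for TOP3A and 0.447 for TOP1MT (a description over libraries that share groups and depth). By pair the mean changed with knockdown by -0.52, 2.45 and 1.87 without and by -0.63, -0.86 and -0.82 with irradiation, the same signs as TOP2A in each of the 6 pairs. All 16 fold changes were positive in the knockdown without irradiation (median 0.93) and all 16 negative in the knockdown with it (median -0.89). None of the 16 was called in either by edgeR, against 1.54% and 0.297% of all genes. With the replicate number as a term MCM2 and PCNA were called higher without irradiation, as were 13.7% of all genes. The medians over all tested genes were 0.0045 and -0.0052. Whether the share of cycling cells has a part in the TOP2A values was not tested.

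**Figure D3:**
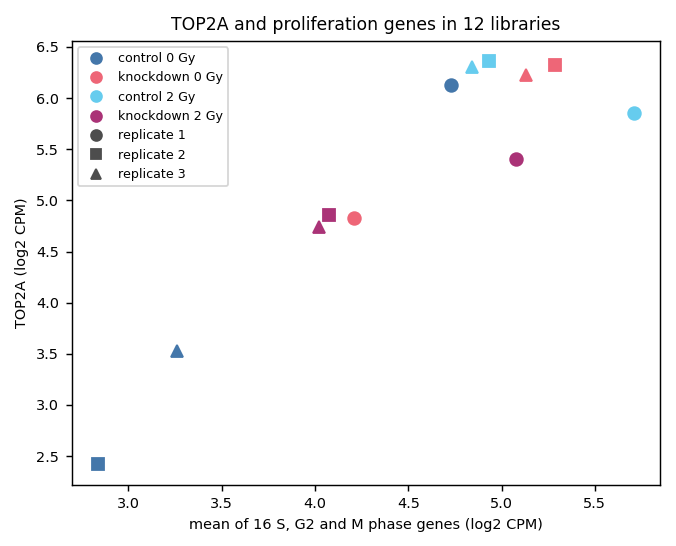
TOP2A level (vertical axis, log2 CPM) against the mean of 16 S, G2 and M phase genes (horizontal axis, log2 CPM), with 1 point per library, groups by colour and replicate numbers by shape. The 12 points run from low left to high right (r = 0.914), with non-irradiated control replicates 2 and 3 at the low end. The r was not computed without those 2 libraries. Replicate 1 of that group lies high in TOP2A (6.13) but mid-range in the mean (4.73). Irradiated control replicate 1 has the highest mean (5.71) with TOP2A at 5.85.

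TOP2B (ENSG00000077097.14; chromosome 3, 25597905 to 25664939, minus strand) acts at promoters of transcribed genes in dividing and resting cells alike. It stood at 87.1, 90.2 and 100 CPM in the non-irradiated controls and at 98.6, 103 and 106 CPM in the non-irradiated knockdowns. It stood at 144, 128 and 116 CPM in the irradiated controls and at 178, 147 and 134 CPM in the irradiated knockdowns. Unlike TOP2A, it varied little within a group, and it was higher with knockdown in all 6 pairs, by 0.09 to 0.30 on the log2 scale. The knockdown difference was 0.15 (SE 0.12, edgeR adjusted p = 0.578) without irradiation and 0.24 (SE 0.12, adjusted p = 0.587) with it. The latter passed with the replicate number as a term (0.24, adjusted p = 0.0213).

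TOP2B was the 1 member that edgeR called between irradiated and non-irradiated libraries. In knockdowns it rose with irradiation by 0.58 on the log2 scale (SE 0.12, edgeR adjusted p = 0.0333), with no overlap between groups. That call was lost when only the compared libraries were fitted (adjusted p = 0.0548). In edgeR it was also lost without non-irradiated knockdown replicate 1 (0.0882), 2 (0.125) or 3 (0.0888), without irradiated knockdown replicate 1 (0.103) or 2 (0.106), and without non-irradiated control replicate 2 (0.0564) or 3 (0.0512). In controls the difference was 0.48 (SE 0.12, adjusted p = 0.0652), again with no overlap, and it passed with DESeq2 (adjusted p = 0.0138) and in edgeR without irradiated knockdown replicate 1 (0.0419). When libraries were scaled by size only, the median of all genes moved to -0.16 in controls and -0.15 in knockdowns, and TOP2B stood at 0.32 and 0.43 (edgeR adjusted p = 0.103 and 0.0439). The ratio of TOP2A to TOP2B per exon length lay between 0.0552 and 0.760 in the non-irradiated controls and between 0.272 and 0.736 in the non-irradiated knockdowns. In the irradiated libraries it lay between 0.379 and 0.646 in controls and between 0.186 and 0.224 in knockdowns.

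TOP1MT (ENSG00000184428.12; chromosome 8, 143304384 to 143359979, minus strand) relaxes mitochondrial DNA. Without irradiation it stood at 21.9, 27.9 and 24.0 CPM in controls and at 23.6, 24.1 and 28.7 CPM in knockdowns. With irradiation it stood at 45.8, 36.6 and 38.0 CPM in controls and at 46.7, 30.3 and 32.8 CPM in knockdowns. Irradiated libraries were above all non-irradiated ones of the same doxycycline state, while control and knockdown overlapped in both states. Knockdown gave 0.05 (SE 0.17, edgeR adjusted p = 0.924) and -0.13 (SE 0.17, adjusted p = 0.891). Irradiation gave 0.70 (SE 0.17, adjusted p = 0.0579) in controls and 0.52 (SE 0.17, adjusted p = 0.117) in knockdowns. In controls it passed without the filter on low counts (adjusted p = 0.0153), with DESeq2 (0.00940) and in edgeR without irradiated knockdown replicate 1 (0.0245). With scaling by library size only, TOP1MT gave 0.55 in controls and 0.37 in knockdowns (edgeR adjusted p = 0.0704 and 0.171).

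TOP3A (ENSG00000177302.14; chromosome 17, 18271428 to 18315007, minus strand) works with BLM, RMI1 and RMI2 to untie joined DNA molecules, and in mitochondria. It stood at 35.3, 33.5 and 35.6 CPM in the non-irradiated controls and at 41.5, 49.0 and 50.4 CPM in the non-irradiated knockdowns. These groups did not overlap. Their difference of 0.43 (log2, SE 0.21) did not pass the test (edgeR adjusted p = 0.323) and passed with the replicate number as a term (0.43, adjusted p = 0.00262) and with only the compared libraries (adjusted p = 0.0307). In the irradiated controls it stood at 51.4, 28.9 and 31.8 CPM and in the irradiated knockdowns at 50.0, 32.8 and 34.8 CPM. Replicate 1 was high in both, and the difference was 0.07 (SE 0.21, edgeR adjusted p = 0.967). SMCR8, an autophagy gene that starts 302 bases from TOP3A on the opposite strand, gave 0.32 without irradiation (edgeR adjusted p = 0.235, and 0.00310 with the replicate number as a term) and 0.24 with it (adjusted p = 0.614, and 0.0244 with the term).

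TOP3B (ENSG00000100038.19; chromosome 22, 21957025 to 21982816, minus strand) acts on DNA and RNA together with TDRD3. It stood at 26.2, 31.8 and 29.9 CPM in the non-irradiated controls and at 37.3, 41.4 and 41.4 CPM in the non-irradiated knockdowns. It stood at 26.9, 27.8 and 29.7 CPM in the irradiated controls and at 34.1, 33.4 and 35.8 CPM in the irradiated knockdowns. In both states every knockdown library was above every control library. The pair differences were 0.51, 0.38 and 0.47 without and 0.34, 0.27 and 0.27 with irradiation. The log2 fold change was 0.45 (SE 0.11, edgeR adjusted p = 0.0588) without irradiation, and its adjusted p over the alternatives ran from 0.000918 with the replicate number as a term to 0.232. It passed with DESeq2 (0.00181), with only the compared libraries (edgeR, 0.0310) and without irradiated control replicate 1 (edgeR, 0.0315). With irradiation it was 0.29 (SE 0.11, edgeR adjusted p = 0.404, and 0.0205 with the replicate number as a term). These counts are uncertain, because the antisense gene LL22NC03-86G7.1 covers 90.7% of the exon bases of TOP3B and the strand setting of the counting is not given in the sources used here. In addition, 73.9% of the short sequence words of TOP3B also occur in another gene. LL22NC03-86G7.1 held 15 to 80 counts per library, against 417 to 1197 for TOP3B.

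**Figure D4:**
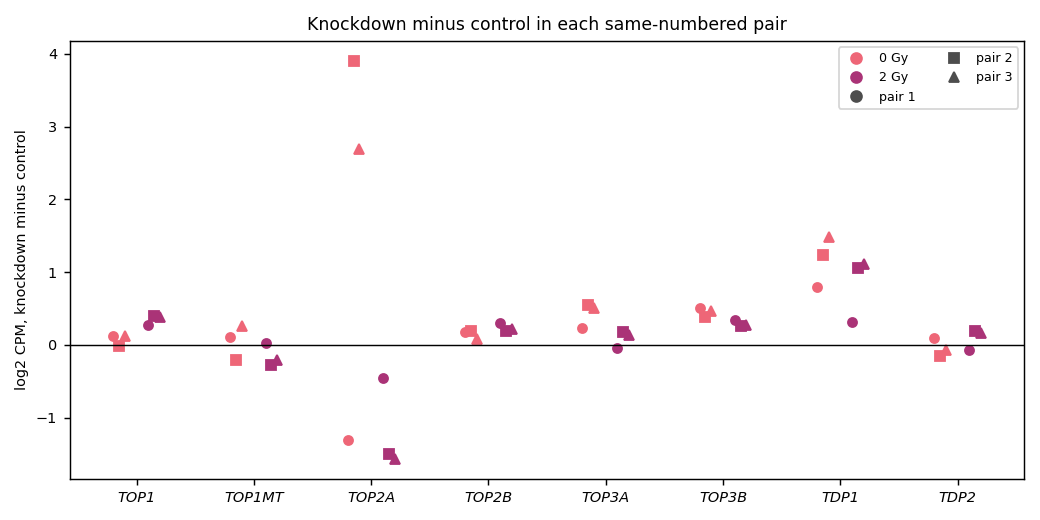
Log2 difference between knockdown and same-numbered control (vertical axis, log2 CPM) for the 8 genes (horizontal axis), with 3 pairs at 0 Gy and 3 at 2 Gy. TDP1, TOP2B and TOP3B lie above 0 in all 6 pairs, and TOP2A runs from -1.57 to 3.90.

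TDP1 in the knockdown without irradiation is left out of the counts for that comparison, since its choice used it. Of the other 7 members, 6 had positive fold changes there, with a median of 0.15 against 0.0045 over all tested genes. EdgeR called 0 of the 7, against 1.54% of all genes. The 1 with an unadjusted p under 0.05 was TOP3B, against 17.4% of all genes, and DESeq2 called it too, against 6.09% of all genes. With irradiation 6 of 8 were positive, the median was 0.17 and edgeR called none of the 8, against 0.297% of all genes; 3 had an unadjusted p under 0.05 (TDP1, TOP1 and TOP3B), against 9.28% of all genes. DESeq2 called 1, TDP1, against 1.59% of all genes. The choice of the family may have drawn on TDP1 there too. Without TDP1, 5 of 7 were positive with irradiation, with a median of 0.09, and 2 had an unadjusted p under 0.05. With the replicate number as a term, 2 of the other 7, TOP3A and TOP3B, were called higher without irradiation, where 13.7% of all genes were. With that term TOP1, TOP2B and TOP3B were called higher with irradiation, where 5.43% of all genes were. The groups did not overlap for 2 of the other 7, TOP3A and TOP3B, without irradiation, against 31.1% of all genes, and for TDP1, TOP1, TOP3B and TOP2A with it, against 13.5%. In all 6 pairs 2 of the other 7, TOP2B and TOP3B, were higher with knockdown, as were 14.4% of all genes.

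Between irradiated and non-irradiated controls edgeR called none of the 8, against 2.26% of all genes; 2 had an unadjusted p under 0.05, TOP1MT and TOP2B, a share near the 21.8% of all genes. DESeq2 called both, and 8.01% of all genes. These were also the 2 members whose groups did not overlap, against 27.6% of all genes. TOP2A gave 1.35 there (SE 0.71, edgeR adjusted p = 0.284), and 3.13 without non-irradiated control replicate 1 (edgeR adjusted p = 0.0156). The non-irradiated controls serve in this comparison and in the knockdown comparison alike. In knockdowns 1 of 8 was called, TOP2B, against 3.58% of all genes. Groups did not overlap for TOP1, TOP1MT and TOP2B, which were higher with irradiation, and for TOP3B, which was lower (-0.22, edgeR adjusted p = 0.258), against 29.8% of all genes. TDP1 gave 0.19 in controls and -0.19 in knockdowns (edgeR adjusted p = 0.601 and 0.642), with overlapping groups in both. No member was called for the difference between the knockdown effects in edgeR or DESeq2, and edgeR called 0% of all genes; 1 member, TOP2A, and 350 of the 17191 genes had an unadjusted p under 0.05 in edgeR.

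**Figure D5:**
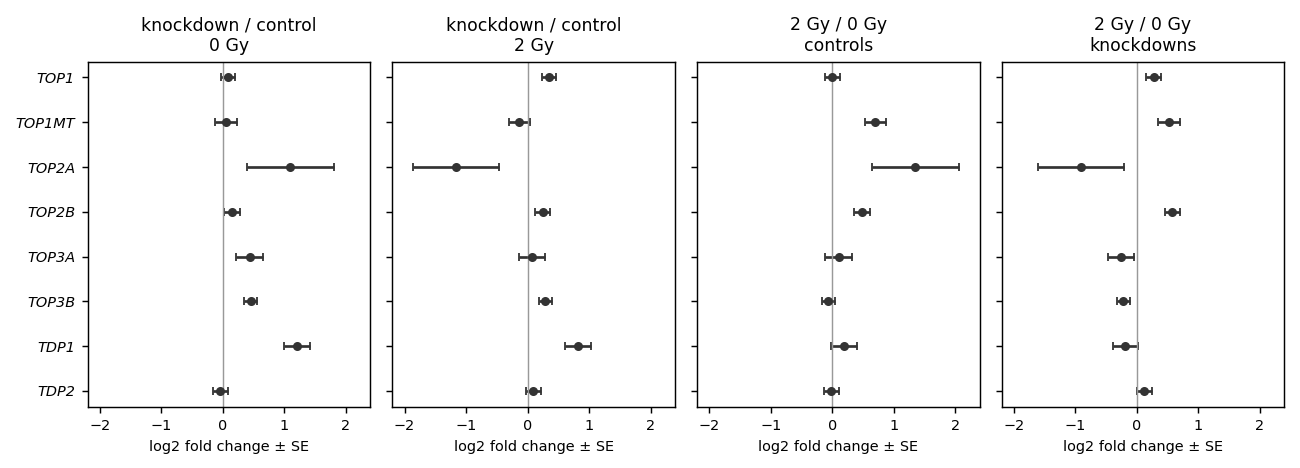
Log2 fold change ± SE (horizontal axis) of the 8 genes in edgeR's fit to all 12 libraries, with a panel for each of 4 comparisons. TDP1 lies at 1.20 and 0.82 in the knockdown panels, TOP2A has the longest error bars, and TOP1MT and TOP2B lie right of 0 in both irradiation panels.

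The partners of the TOP3 enzymes and the factors that finish the repair of trapped ends were read from lists. Of 7 TOP3 partners, all tested, edgeR called none in either knockdown comparison, against 1.54% and 0.297% of all genes. The medians were 0.24 and 0.04, with 5 and 4 positive. The smallest p without irradiation belonged to FXR1, an RNA-binding relative of FMR1 (0.24, edgeR adjusted p = 0.245), and to the helicase gene BLM (1.59, adjusted p = 0.275). With irradiation they belonged to FXR1 (0.25, adjusted p = 0.467) and RMI1 (-0.31, adjusted p = 0.533). The replicate number as a term called FXR1 and FXR2 higher without irradiation, where 13.7% of all genes were called higher. With irradiation it called FXR1 higher and RMI1 lower, where 5.43% of all genes were called higher and 6.05% lower. FXR1 rose with irradiation in controls (0.44, edgeR adjusted p = 0.0473) and in knockdowns (0.45, adjusted p = 0.0366). TDRD3, the scaffold of TOP3B, rose in knockdowns (0.56, adjusted p = 0.0338) and gave 0.51 in controls (adjusted p = 0.0510, and 0.0460 with the replicate number as a term). That term joins libraries of both tables that share only a number. For irradiation edgeR called 2.26% of all genes in controls and 3.58% in knockdowns, and 5.61% in controls with the term.

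Of 25 factors for trapped ends, 24 were tested. SLFN11, a gene whose product stops stressed replication forks, had 0 counts in all 12 libraries, which allows up to 3 counts in a library. Without irradiation 15 were positive and 9 negative with knockdown (median 0.03), and with irradiation 12 and 12 (median -0.03). EdgeR called none in either, against 1.54% and 0.297% of all genes. LIG3, the ligase that seals single-strand breaks behind TDP1, stood at 86.3 ± 7.65 CPM in non-irradiated controls and 112 ± 13.4 CPM in knockdowns (0.38, SE 0.11, edgeR adjusted p = 0.113). With the replicate number as a term 8 were called higher, among them LIG3, XRCC1, PARP1, FEN1, APEX2, PIAS4 and SUMO2, and 4 lower, SPRTN, NBN, ERCC4 and DDI2, where 13.7% of all genes were called higher and 14.1% lower. The adjusted p of LIG3 was then 0.00116. EME1, which encodes a nuclease partner of MUS81, had the next smallest p (1.53, edgeR adjusted p = 0.166). With irradiation LIG3 gave 0.24 (edgeR adjusted p = 0.561) and DDI2, which encodes a protease, -0.24 (adjusted p = 0.575). The term for the replicate number then called 3 higher, LIG3, ZNF451 and RAD50, and 2 lower, RBBP8 and DDI2, where 5.43% of all genes were called higher and 6.05% lower. For irradiation in knockdowns edgeR called 1 of the 24, the nuclease gene MUS81, a share near the 3.58% of all genes. There it fell from 34.5 ± 1.98 to 24.1 ± 2.93 CPM (-0.51, edgeR adjusted p = 0.0368). In controls none of the 24 was called, against 2.26% of all genes, and MUS81 gave -0.44 (adjusted p = 0.0683).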

How the data were processed

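Polyadenylated RNA was sequenced per the labels' protocols, and the authors deposited unnormalised read counts for each gene, with 6 libraries in each of 2 tables (non-irradiated and irradiated), in featureCounts layout per the file headers. Per the submitters' processing notes, tools included edgeR 3.20.8, Subread 1.5.3 with featureCounts, and STAR 2.5, and the build was GRCh38. The strand setting was not given in the sources used here. Low counts were filtered with filterByExpr (at least 10 as minimum count and 15 in total), scaled by TMM and fitted to all 12 libraries with edgeR 4.0.16's robust quasi-likelihood test in R 4.3.3 (8 residual degrees of freedom, biological coefficient of variation 0.216). A call is a Benjamini-Hochberg adjusted p under 0.05 over 17191 genes, and the SE is the log2 fold change over the square root of F. Log2 CPM use a prior count of 2. No line named anything but a gene. The script was tested on simulated data. DESeq2 1.42.0 and limma 3.58.1 served as alternatives.

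Same-numbered control and knockdown libraries deviated together from their group means (correlations 0.233, 0.255 and 0.296 without and 0.775, 0.613 and 0.607 with irradiation), a pairing that comes from the data. Values with the replicate number as a term are given where they change the call of a member or a named gene. For knockdown the term gave each pair within an irradiation state its own level (4 residual degrees of freedom). For irradiation it was a different fit, with 1 level per replicate number across both tables. That pairing is not borne out by the data, since same-numbered libraries there did not deviate together. The named genes were the 8 members, the called members or the 2 smallest p of each list in a knockdown comparison, and the nearest tested neighbours. Members called only with the replicate term are named beyond that rule. Members and lists were chosen with earlier results of these data known. Sequences are from RefSeq, in which 7 members were matched, and overlaps of genes from the tables' coordinates and GENCODE 29 transcripts.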

Additional observations from a re-analysis of the deposited data

How the results depend on the processing

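Of 743 values with a test, for 39 member results under alternatives, 690 kept their direction and side of the threshold, 8 lost a call, 20 gained one and 25 changed sign. The other 25 values have no test, 20 of them TDP1 in the knockdown without irradiation, and kept their sign. For the knockdown without irradiation TDP1 is left out, since its choice used it, and the main fit called 0 of the other 7 members. DESeq2 called TOP3B, the fit to only the libraries compared called TOP3A and TOP3B, and the fit without the first pair called TOP2A. These settings called 6.09%, 9.25% and 1.12% of all genes. With irradiation the count of members called (0 in the main fit) was 1 with DESeq2 and 1 without the first pair, TDP1 each time. For irradiation in controls (0) it was 2 with DESeq2 and 1 without the filter, and in knockdowns (1) it was 0 with only the libraries compared. Leaving out 1 library gave 0 to 1 for the knockdown with irradiation, 0 to 2 for irradiation in controls and 0 to 1 in knockdowns. The difference of the knockdown effects gave 0 throughout, and fitting only the libraries compared gives no value for it. Of the other 7 members in the knockdown without irradiation, leaving out non-irradiated control replicate 1 called TOP2A, with 0.679% of all genes. Leaving out irradiated control replicate 1 called TOP3B, with 5.6% of all genes. No other single library left out called any of the 7. The replicate block called 2 of the other 7 members in the knockdown without irradiation and 3 of the 8 with it. Across the tables same-numbered libraries share only a number (correlations -0.150 to 0.143 in controls and -0.045 to 0.023 in knockdowns). The block there gave 0 in controls and 1 in knockdowns and changed no call of a member.

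Values near 0 changed sign. Irradiation in controls gave 0.017 for TDP2 without the filter. TOP1 there gave -0.15 and TOP3A -0.065 with scaling by library size, and TOP1 gave -0.0024 with limma-voom, -0.0023 with only the libraries compared and -0.0015 with the block. TDP2 in irradiated knockdowns gave -0.025 with scaling by library size. Without 1 library each, the values ran from -0.090 to 0.050 (TDP2) and -0.049 to 0.15 (TOP1MT) for the knockdown without irradiation, and from -0.0035 to 0.15 (TDP2) and -0.16 to 0.37 (TOP3A) with it. They ran from -0.076 to 0.074 (TDP2), -0.081 to 0.098 (TOP1) and -0.20 to 0.27 (TOP3A) for irradiation in controls, and from -0.030 to 0.19 for TOP2B in the difference of effects. The cause was not tested. With 3 libraries a group, TOP2A had an SE of 0.71 in the knockdown without irradiation and for irradiation in controls. Its log2 differences of 1.10 and 1.35 there were not called by edgeR, so even differences above the SE can go undetected.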

Other observations

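Over the 12 libraries, the tested genes whose log2 CPM followed each member most closely were read by Pearson's r, as a description over libraries that share groups and depth. TOP2A was followed by 3 genes of mitosis, DLGAP5 (r = 0.988), KIF14 (0.987) and KIF20A (0.982). TOP1MT was followed by the ribosomal protein genes RPS2 (0.971) and RPL35 (0.968) and by TAF10 (0.968), which encodes a subunit of the TFIID complex. TOP3A was followed by RP11-480I12.5, listed as a pseudogene (0.978), by DDX51 (0.965) and by the replication helicase gene MCM5 (0.964). TOP2B was followed by SNRPB2 (0.972), RBM12 (0.968) and SOX4 (0.968), and TOP1 by THEM4 (0.937), LSM14A (0.928) and NCBP2 (0.915).

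TDP1 was followed by RP11-693J15.6, a noncoding RNA gene on chromosome 12 (0.973), by MAGEA12 on the X chromosome (0.937) and by FAM118B (0.933). TOP3B was followed by CTA-29F11.1, listed as antisense (0.959), SERINC5 (0.955) and MFHAS1 (0.948). TDP2 had the lowest such values, with PDCD10 (0.864), STRADB (0.856) and IDI1 (0.840). Among the members themselves the highest correlations were those of TDP1 with TOP3B (0.850) and TOP1MT with TOP2B (0.839). With PRMT5, r was -0.869 for TDP1, -0.845 for TOP3B and -0.606 for TOP1. It was -0.375 for TOP3A, -0.303 for TOP2B, -0.148 for TDP2, -0.0972 for TOP2A and 0.101 for TOP1MT. PRMT5 levels split by doxycycline, so these values restate the knockdown differences and were not tested. For TDP1 they include the rise by which the family was chosen.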
